A study of Mus musculus with 16 samples.

Results

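The glucocorticoid receptor gene Nr3c1 and 9 genes that the receptor is known to switch on (Fkbp5, Tsc22d3, Zbtb16, Arrdc2, Mt1, Mt2, Klf9, Sgk1 and Cdkn1a) were followed in mouse heart ventricles with and without chronic kidney disease (CKD). They were taken by symbol from a table of 33399 genes, and all 10 were among the 16400 genes with enough counts to test. Nr3c1 differed little between CKD and control mice, while Fkbp5, Arrdc2 and Mt1 had higher fitted levels in CKD mice, by 1.72-fold, 2.11-fold and 1.29-fold. None of the 10 genes passed the threshold of an adjusted p of 0.05, which 0.0854% of all tested genes did, and most of the targets differed as much between mice of one group as between the groups.

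Ventricle RNA was sequenced from 16 C57BL/6 wild-type mice in 4 groups of 4: male CKD, male control, female CKD and female control. CKD mice, for which the labels give an age of 8 weeks at the start, ate chow with 0.25% adenine, in alternation with standard chow, for 6 weeks. Adenine forms crystals that injure the kidney tubules, so the heart meets a secondary disease. Control mice ate standard chow for the same 6 weeks, their age is not stated separately, and neither arm received a glucocorticoid or carried an altered gene. Mice are numbered within a group by record order, which pairs nothing. The labels state neither hormone levels nor the time of day at which hearts were taken.

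Libraries held 10203707 to 13626039 counts, and levels are given below as counts per 1000000 library counts (CPM) after TMM scaling. The summed level of 8 ventricular cardiomyocyte markers was 34550 to 49670 CPM in CKD and 29890 to 43270 CPM in control libraries, and that of 6 skeletal muscle markers was at most 6.82 CPM. One library stood apart: in male CKD mouse 4 the 7 fibroblast markers summed to 191 CPM, against 839 CPM or more in every control. It also had the lowest sums of endothelial (309 CPM), pericyte and smooth muscle (432 CPM), macrophage (77.0 CPM) and lymphocyte markers (6.73 CPM). Its cardiomyocyte sum was the highest (49670 CPM), and its adipocyte, erythroid and atrial sums were not the lowest.

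Glucocorticoids, corticosterone in the mouse, enter cells and bind a receptor held in the cytoplasm by heat shock proteins. The bound receptor moves to the nucleus and binds a palindromic DNA element, and many of its targets rise within hours of a hormone pulse. Cardiomyocytes express the receptor, and its loss from mouse cardiomyocytes is known to lead to cardiac disease. Several targets have other inducers as well: zinc and other metals for the metallothioneins, p53 for Cdkn1a and aldosterone for Sgk1.

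Start-site sequences from RefSeq (GRCm38.p6, 250 bases before to 50 after each start) were available for 8 of the genes in 16 windows, and none was printed for Nr3c1 or Zbtb16. The full receptor element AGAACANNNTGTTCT, a palindrome, was matched in 1 of the 16 windows, at a start of Sgk1, and in 3 of all 32851 windows in the reference (0.00913%). Its single arm AGAACA, searched on both strands and also counted inside the full element, is common (19% of all windows) and was found in windows of Tsc22d3 and Sgk1. No match says only that these letters are absent from a short window, and known receptor sites of several targets lie far from the start. The Sgk1 match is shown on the plus strand at chr10:21993681-21993735, with the full element in capitals, because it is the only one among the genes.
Sgk1 element: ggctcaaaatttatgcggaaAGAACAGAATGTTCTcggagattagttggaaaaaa

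The metallothionein genes are neighbours on chromosome 8, with 5513 bases between the end of Mt2 and the start of Mt1, and both answer to glucocorticoids and to metals. Their 250 upstream bases are shown because the results set these neighbours side by side, with the metal response core TGCACNC or TGCGCNC in capitals on either strand. This core occurred in 25.7% of all windows, and 3 or more times in 1.97%. Mt1 held 3 cores and Mt2 held 4 in the whole window, of which 1 and 3 lie in the stretches shown (plus strand, chr8:94178839-94179088 for Mt1 and chr8:94172368-94172617 for Mt2). In a gapped alignment the 250-base stretches shared 138 identical bases, which is 69.7% of the 198 aligned bases with gap positions left out. Unrelated windows were not aligned for comparison.
Mt1 upstream: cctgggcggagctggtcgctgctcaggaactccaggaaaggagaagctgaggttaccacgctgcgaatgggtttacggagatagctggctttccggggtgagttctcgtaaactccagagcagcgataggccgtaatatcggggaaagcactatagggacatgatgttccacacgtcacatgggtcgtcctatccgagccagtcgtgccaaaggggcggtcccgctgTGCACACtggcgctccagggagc
Mt2 upstream: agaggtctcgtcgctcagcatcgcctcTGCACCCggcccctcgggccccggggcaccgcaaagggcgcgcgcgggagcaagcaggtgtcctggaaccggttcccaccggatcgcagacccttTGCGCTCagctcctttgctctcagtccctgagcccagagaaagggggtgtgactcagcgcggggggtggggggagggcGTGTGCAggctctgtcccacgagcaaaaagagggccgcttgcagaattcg

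The gene that encodes the receptor itself, Nr3c1 (ENSMUSG00000024431.14), lies on chromosome 18 from 39410545 to 39519421 on the minus strand (GRCm38). Its level was 107, 128, 128 and 65.8 CPM in male CKD mice 1 to 4 and 124, 109, 139 and 117 CPM in female CKD mice, against 122, 132, 89.1 and 122 CPM in male and 135, 147, 109 and 130 CPM in female control mice. The groups overlapped widely, and the lowest value belonged to male CKD mouse 4, the library with few transcripts of fibroblasts and several other cell types. In bulk tissue fewer cells of a type and less RNA per cell cannot be told apart. The log2 fold change of CKD against control was -0.10 ± 0.13 (SE), with a 95% interval of -0.37 to 0.16 (edgeR quasi-likelihood test with Benjamini-Hochberg adjustment, adjusted p = 0.706). Without male CKD mouse 4 and female control mouse 2 the estimate was 0.01.

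Around the receptor stand its chaperones, the enzymes that regenerate or remove its hormone, and its coregulators. Of 21 such genes 20 were tested, 6 with a positive and 14 with a negative fold change, and none passed the threshold. Their median log2 fold change was -0.07, beside 0.0017 for all tested genes. The lowest p-values belonged to Fkbp4, the chaperone partner that eases the receptor into the nucleus, and to the heat shock proteins Hsp90ab1 and Hsp90aa1. Fkbp4 had a median of 300 CPM in CKD and 372 CPM in control mice (log2 fold change -0.28 ± 0.11, adjusted p = 0.254). The log2 fold change was -0.21 ± 0.10 for Hsp90ab1 (adjusted p = 0.320) and -0.30 ± 0.15 for Hsp90aa1 (adjusted p = 0.350). Hsd11b1, which regenerates active hormone inside cells, averaged 20.0 CPM in CKD and 17.5 CPM in control mice (log2 fold change 0.21 ± 0.19, adjusted p = 0.616). Nr3c2, the mineralocorticoid receptor that also binds corticosterone, averaged 30.5 CPM in CKD and 31.1 CPM in control mice (log2 fold change -0.03 ± 0.09, adjusted p = 0.865). Hsd11b2, which inactivates the hormone, was at or below 0.0894 CPM in every CKD library and was not tested. The last 3 genes were picked for their roles after values had been seen.

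Fkbp5 (ENSMUSG00000024222.16, chromosome 17 from 28399094 to 28517527, minus strand) encodes a chaperone partner that lowers the receptor's affinity for hormone and is among its most sensitive targets. Its level was 56.6, 35.4, 26.9 and 26.4 CPM in male CKD mice 1 to 4, against 39.2, 33.3, 10.4 and 11.5 CPM in male control mice. It was 49.8, 46.6, 37.1 and 89.5 CPM in female CKD mice, against 27.6, 37.0, 19.7 and 31.3 CPM in female control mice. All 8 CKD mice lay above the control mean of their sex and 4 above the highest control, and in females the groups did not overlap, though the lowest CKD mouse (37.1 CPM) and the highest control (37.0 CPM) were nearly equal. The fitted log2 fold change was 0.78 ± 0.28 (95% interval 0.20 to 1.37, edgeR adjusted p = 0.190). It ranged from 0.62 to 0.94 when any 1 mouse was left out.

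Tsc22d3 (ENSMUSG00000031431.13, chromosome X from 140539528 to 140600659, minus strand) encodes GILZ, a leucine zipper protein through which glucocorticoids restrain inflammation. Its level was 112, 152, 109 and 92.5 CPM in male CKD mice, against 128, 79.4, 62.5 and 78.6 CPM in male control mice. Female CKD mice had 186, 95.9, 123 and 166 CPM, against 66.4, 96.6, 115 and 176 CPM in female controls. All 8 CKD values were above the control median and 1 was above the highest control. CKD against control gave a log2 fold change of 0.37 ± 0.19 (95% interval -0.03 to 0.78, edgeR adjusted p = 0.365).

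Arrdc2 (ENSMUSG00000002910.11, chromosome 8 from 70835129 to 70839720, minus strand) encodes an arrestin domain protein and had the largest fitted fold among the 10 genes. Its level was 33.9, 16.2, 15.9 and 23.9 CPM in male CKD mice, against 18.0, 5.34, 5.40 and 6.69 CPM in male control mice. Among females the values were 24.9, 10.2, 9.34 and 25.99 CPM with CKD, against 5.27, 4.12, 14.8 and 16.1 CPM in controls. Control mice of each sex held both low and high values, and 7 of 8 CKD mice lay above the control mean of their sex. Its CKD log2 fold change was 1.08 ± 0.35 (95% interval 0.34 to 1.81, edgeR adjusted p = 0.157). DESeq2 gave an adjusted p of 0.0615, the lowest among the 10 genes for CKD against control. Removal of the GC trend of each library gave a log2 fold change of 1.26 (adjusted p = 0.0895).

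Zbtb16 (ENSMUSG00000066687.5, chromosome 9 from 48654297 to 48836222, minus strand) encodes the zinc finger factor PLZF. Its level was 129, 29.6, 45.1 and 13.8 CPM in male CKD mice, against 19.2, 21.99, 7.40 and 19.0 CPM in male control mice. Female CKD mice had 22.5, 16.8, 38.7 and 141 CPM, against 21.1, 11.04, 77.7 and 78.8 CPM in female controls. Single mice carried much of the difference: male CKD mouse 1 and female CKD mouse 4 were high, but so were female control mice 3 and 4. Male CKD mice 2 and 3 also lay above all male controls, and male CKD mouse 4 did not. The fitted log2 fold change was 0.94 ± 0.56 (95% interval -0.23 to 2.11, edgeR adjusted p = 0.426), and 0.48 without male CKD mouse 1 or 0.56 without female CKD mouse 4.

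Klf9 (ENSMUSG00000033863.1, chromosome 19 from 23141226 to 23168134, plus strand) encodes a zinc finger factor that is a rapid glucocorticoid target in many tissues. Its level was 196, 115, 132 and 61.1 CPM in male CKD mice, against 178, 118, 49.9 and 111 CPM in male control mice. Among females the values were 86.3, 71.5, 121 and 121 CPM with CKD, against 84.9, 59.8, 141 and 116 CPM in controls. The ranges were nearly the same, with a log2 fold change of 0.07 ± 0.25 (95% interval -0.46 to 0.59, edgeR adjusted p = 0.909).

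Mt1 (ENSMUSG00000031765.8, chromosome 8 from 94179082 to 94180327, plus strand) encodes a small protein that binds zinc and copper. Its level was 59.8, 79.5, 63.8 and 96.1 CPM in male CKD mice, against 74.7, 63.3, 56.8 and 62.9 CPM in male control mice. Female CKD mice had 102, 88.7, 62.8 and 92.2 CPM, against 50.6, 60.7, 63.1 and 67.2 CPM in female controls. Control values lay close together, and 5 of 8 CKD mice were above the highest of them. CKD against control gave a log2 fold change of 0.36 ± 0.12 (95% interval 0.11 to 0.62, edgeR adjusted p = 0.168). Its range was 0.31 to 0.42 with any 1 mouse left out.

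Mt2 (ENSMUSG00000031762.7, chromosome 8 from 94172664 to 94173568, plus strand) encodes the sister protein and was counted at a lower level, 22 to 233 counts per library. It had 6.82, 6.93, 7.42 and 5.59 CPM in male CKD mice, against 16.6, 8.73, 1.83 and 5.37 CPM in male control mice. Among females the values were 19.4, 8.18, 10.0 and 8.51 CPM with CKD, against 6.71, 7.80, 7.21 and 6.40 CPM in controls. All 4 female CKD mice lay above all 4 female controls, whereas all 4 male CKD mice lay below the mean of the male controls, which was raised by male control mouse 1 (16.6 CPM). Without that mouse the male log2 fold change turned to 0.30. Over both sexes the log2 fold change was 0.22 ± 0.32 (95% interval -0.46 to 0.89, edgeR adjusted p = 0.767), and it was 0.0022 without female CKD mouse 1. The annotated gene Gm45774 covers 73.5% of its exon bases on the opposite strand. That gene had 1 to 21 counts per library, and the labels do not state whether strand was used in counting, so reads of the pair cannot be told apart with certainty. The level of Mt2, its order among the genes and its pairs below carry this limit.

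Of the 10 other genes on the metal response list (transporters, the sensor Mtf1 and metal-linked stress genes) 9 were tested, and of these 4 had a positive and 5 a negative fold change and none passed the threshold, with a median of -0.0011. The lowest p-values were those of Gclc, an enzyme of glutathione synthesis (log2 fold change 0.20 ± 0.08, adjusted p = 0.267), the copper carrier Cp (0.41 ± 0.20, adjusted p = 0.345) and the metal transporter Slc39a14 (-0.09 ± 0.11, adjusted p = 0.692).

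Sgk1 (ENSMUSG00000019970.15, chromosome 10 from 21882184 to 21999903, plus strand) encodes a kinase that regulates ion channels and transporters. Its level was 46.1, 145, 64.2 and 31.3 CPM in male CKD mice, against 66.6, 63.9, 28.1 and 40.1 CPM in male control mice. Female CKD mice had 84.8, 28.8, 54.2 and 123 CPM, against 82.3, 91.5, 83.7 and 60.3 CPM in female controls. CKD mice held both the highest values and several of the lowest. Its CKD log2 fold change was 0.20 ± 0.31 (95% interval -0.46 to 0.86, edgeR adjusted p = 0.779) and turned to -0.13 without male CKD mouse 2. Among 5 tested genes of mineralocorticoid action and sodium transport 1 was positive and 4 negative, with no call. The lowest p-values were those of the kinase Wnk1 (-0.40 ± 0.15, adjusted p = 0.217), the sodium pump subunit Atp1b1 (0.21 ± 0.11, adjusted p = 0.360) and Wnk4 (-0.32 ± 0.31, adjusted p = 0.638).

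Cdkn1a (ENSMUSG00000023067.13, chromosome 17 from 29090976 to 29100727, plus strand) encodes p21, an inhibitor of cyclin-dependent kinases. Its level was 26.7, 61.8, 18.9 and 22.2 CPM in male CKD mice, against 33.9, 27.0, 10.4 and 10.6 CPM in male control mice. Among females the values were 39.0, 22.7, 20.97 and 19.0 CPM with CKD, against 31.0, 49.6, 25.5 and 13.3 CPM in controls. The groups overlapped, with the highest value again in male CKD mouse 2. The fitted log2 fold change was 0.21 ± 0.33 (95% interval -0.49 to 0.91, edgeR adjusted p = 0.778), and -0.08 without that mouse. That library also had the highest summed level of 14 immediate early genes, 449 CPM, where the other 7 CKD libraries had at most 151 CPM and the controls 80.1 to 194 CPM. The part of that signal in its Sgk1 and Cdkn1a values was not tested. Of 15 tested p53 targets other than Cdkn1a, 5 were positive and 10 negative with a median of -0.20, none past the threshold. Tnfrsf10b, a death receptor, had -0.51 ± 0.18 (adjusted p = 0.193), Trp53inp1 0.38 ± 0.14 (adjusted p = 0.209) and Plk2 -0.27 ± 0.11 (adjusted p = 0.265) on the log2 scale.

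**Figure D1:**
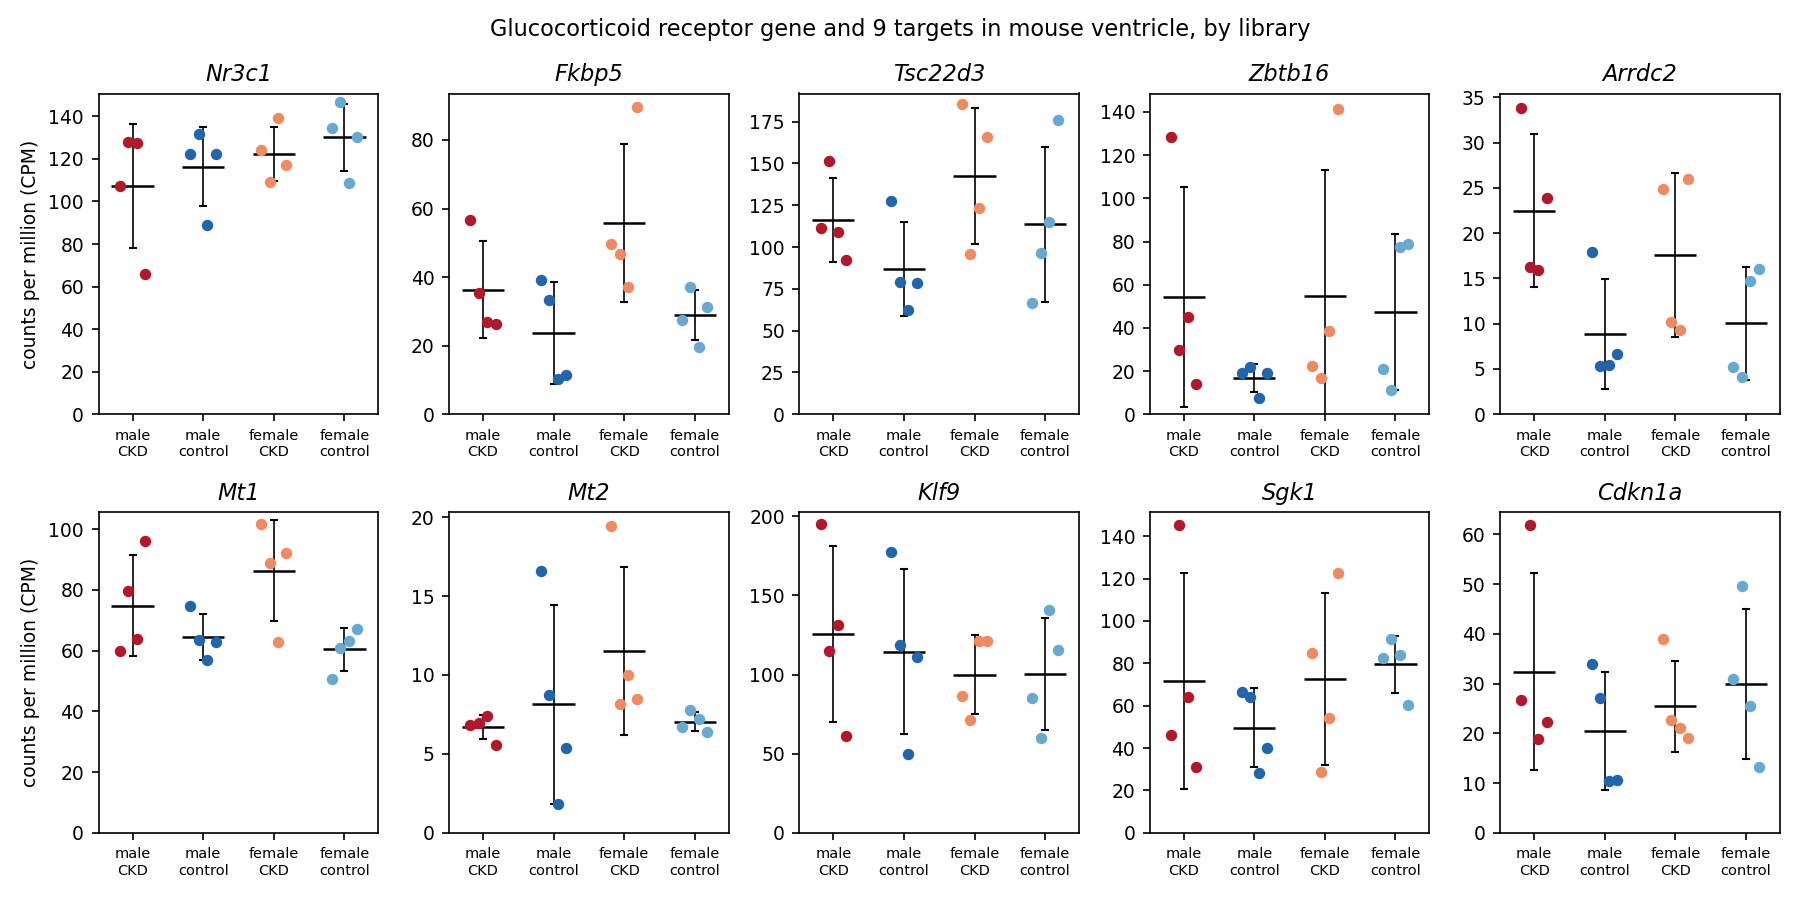
Level of each gene in CPM (vertical axes, from 0) in the 16 libraries, by group; points are mice, horizontal bars the group means and vertical bars ± SD (n = 4 each, cut off at 0 for Zbtb16). Fkbp5 in female CKD mice (37.1 to 89.5 CPM) lies above all female controls (19.7 to 37.0 CPM), and the wide Zbtb16 bars come from 1 or 2 high mice in 3 of the groups.

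Counted together, 9 of the 10 genes had a positive CKD fold change, beside 50.2% of all tested genes, and the median was 0.29. At an unadjusted p under 0.05 there were 3, all positive (Fkbp5, Arrdc2 and Mt1), where 15.4% of all tested genes were past that value in either direction and 8.12% with a positive change. With adjustment over all tested genes 0 of the 10 passed in edgeR (background 0.0854%), DESeq2 (background 2.03%) or limma-voom (background 1.21%). Under the other settings tried, the median of the 10 genes ranged from 0.20 to 0.42. The genes were not chosen blind to these data, so the counts are a description. No gene separated all 8 CKD from all 8 control mice, which 0.159% of the tested genes did with CKD higher.

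In males 8 of the 10 genes were positive (background 51.4%), with 0 past the adjusted threshold (background 0%) and 2 at an unadjusted p under 0.05 (background 6.88%). These were Zbtb16 (log2 fold change 1.68 ± 0.76, edgeR adjusted p = 0.722, and 0.80 without male CKD mouse 1) and Arrdc2 (1.34 ± 0.50, edgeR adjusted p = 0.648, the lowest of the 10). None of the 10 had all male CKD mice above all male controls, as 1.63% of tested genes did. In females 6 were positive (background 49.3%), with 0 past the adjusted threshold (background 0.0549%) and 2 at an unadjusted p under 0.05 (background 8.34%). These were Mt1 (0.52 ± 0.17, edgeR adjusted p = 0.462) and Fkbp5 (0.95 ± 0.40, edgeR adjusted p = 0.530). Fkbp5 and Mt2 were the 2 genes with all female CKD mice above all female controls, as was the case for 5.08% of tested genes.

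The difference between the sexes was tested itself, as an interaction. None of the 10 genes passed (background 0%), and none had an unadjusted p under 0.05 (background 1.68%). Mt2 came closest, with a CKD effect of 0.72 ± 0.43 in females and -0.29 ± 0.43 in males on the log2 scale (difference 1.01 ± 0.61, edgeR adjusted p = 1). That difference was 0.39 without male control mouse 1 and ranged up to 1.33 with 1 mouse left out. Zbtb16 followed the other way, with 0.22 ± 0.74 in females and 1.68 ± 0.76 in males (difference -1.47 ± 1.06, edgeR adjusted p = 1). It was -0.58 without male CKD mouse 1 and -2.54 without female CKD mouse 4, where the female effect turned to -0.85. Females and males were also compared within an arm. In CKD mice none of the 10 passed (background 0.0427%), with the lowest p-value for Mt2 (female over male 0.79 ± 0.43, edgeR adjusted p = 0.386). In control mice none passed (background 0.0366%), with the lowest p-value for Zbtb16 (1.48 ± 0.76, edgeR adjusted p = 0.639).

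**Figure D2:**
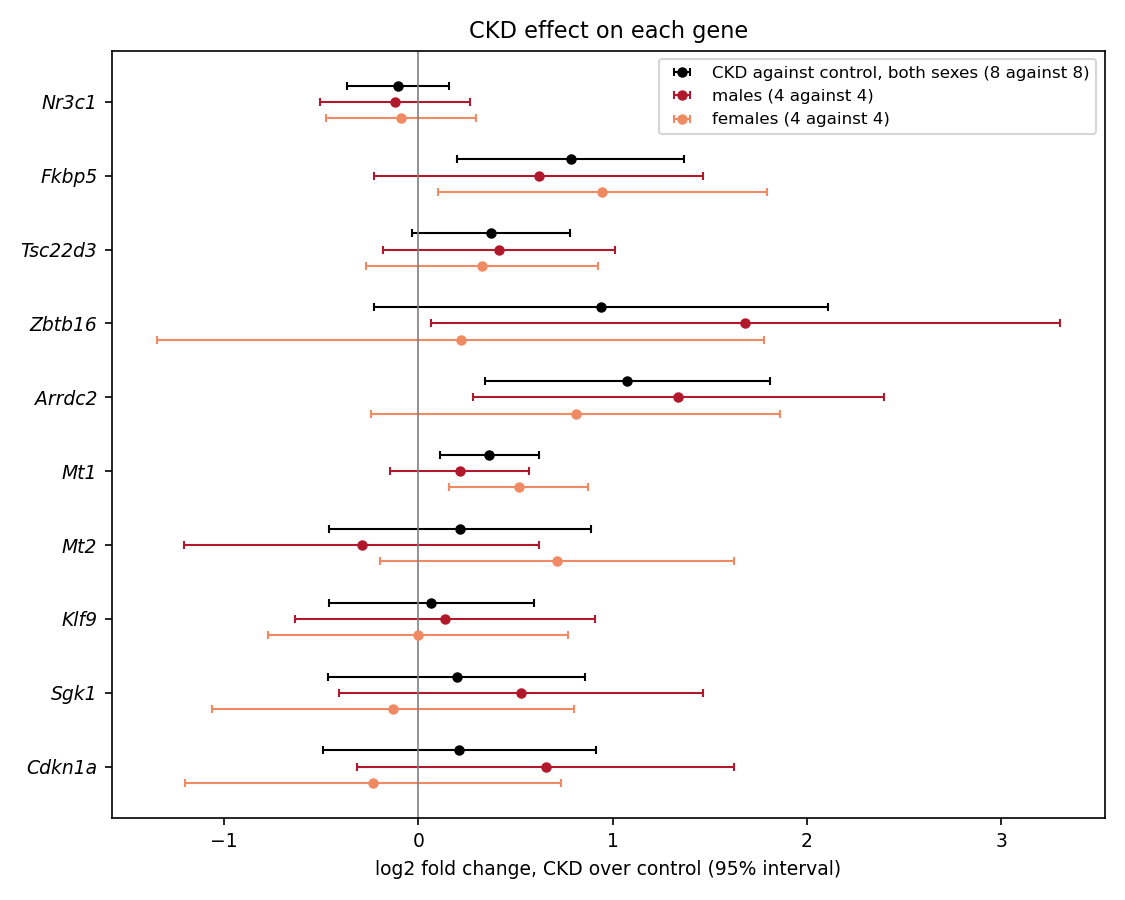
Log2 fold change of CKD over control (horizontal axis) with its 95% interval from edgeR for each gene, for both sexes together (8 against 8 mice) and for males and females (4 against 4). Among the 10 genes, only Fkbp5, Arrdc2 and Mt1 have an interval for both sexes together that lies above 0, and the interval of Zbtb16 is the widest.

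The samples carry a number in their title whose meaning the labels do not explain. It is 6 in 10 libraries (5 of them CKD), and the other libraries have 2, 3 or 5. Within the 10 libraries of number 6 the CKD log2 fold change was 0.47 for Fkbp5 (adjusted p = 0.416), 0.97 for Arrdc2 (adjusted p = 0.407), 0.25 for Mt1 (adjusted p = 0.571) and 0.36 for Tsc22d3. There it was -0.47 for Sgk1 and -0.39 for Cdkn1a, the opposite sign to that over all mice. That set leaves out male CKD mouse 2, the only library of number 5, which had the highest value of both genes. With the number as a factor over all 16 libraries the CKD log2 fold change was 0.87 for Fkbp5, 1.18 for Arrdc2 and 0.36 for Mt1.

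Per kilobase of exon, over all 16 mice, the genes stood in the order Mt1 (57.4 CPM per kilobase), Tsc22d3 (26.5), Klf9 (22.9), Nr3c1 (15.5), Mt2 (14.2), Sgk1 (13.9), Zbtb16 (8.20), Cdkn1a (7.61), Arrdc2 (4.56) and Fkbp5 (3.82). Only the gap between Mt1 and Tsc22d3 was larger than the SD of either gene over mice (12.4 and 8.79 CPM per kilobase). All other neighbours in this order differed by less than the larger of their SDs.

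The receptor gene and its targets differed in how much they varied between mice fed alike. The SD of log2 CPM about the group means was 1.24 for Zbtb16, 0.80 for Arrdc2, 0.74 for Cdkn1a, 0.73 for Sgk1, 0.72 for Mt2, 0.65 for Fkbp5 and 0.61 for Klf9. The median over all tested genes was 0.30. Zbtb16 varied more than 99.96% of the 2682 genes of similar level (within 0.5 on the log2 scale), and its highest library held 19.1 times its lowest. Sgk1 varied more than 97.6% and Klf9 more than 95.9% of the genes of their own level. That share was 91.2% for Tsc22d3 (SD 0.45), 71.4% for Nr3c1 (SD 0.28, and 0.19 without male CKD mouse 4) and 59.3% for Mt1 (SD 0.25). Of the 10 genes 7 had their lowest value in male control mouse 3, including 10.4 CPM of Fkbp5 and 7.40 CPM of Zbtb16. The share of all tested genes that were lowest in that mouse was not computed, so the count is a description. Its title number, 3, is shared only by male CKD mouse 4, which was lowest for Nr3c1.

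**Figure D3:**
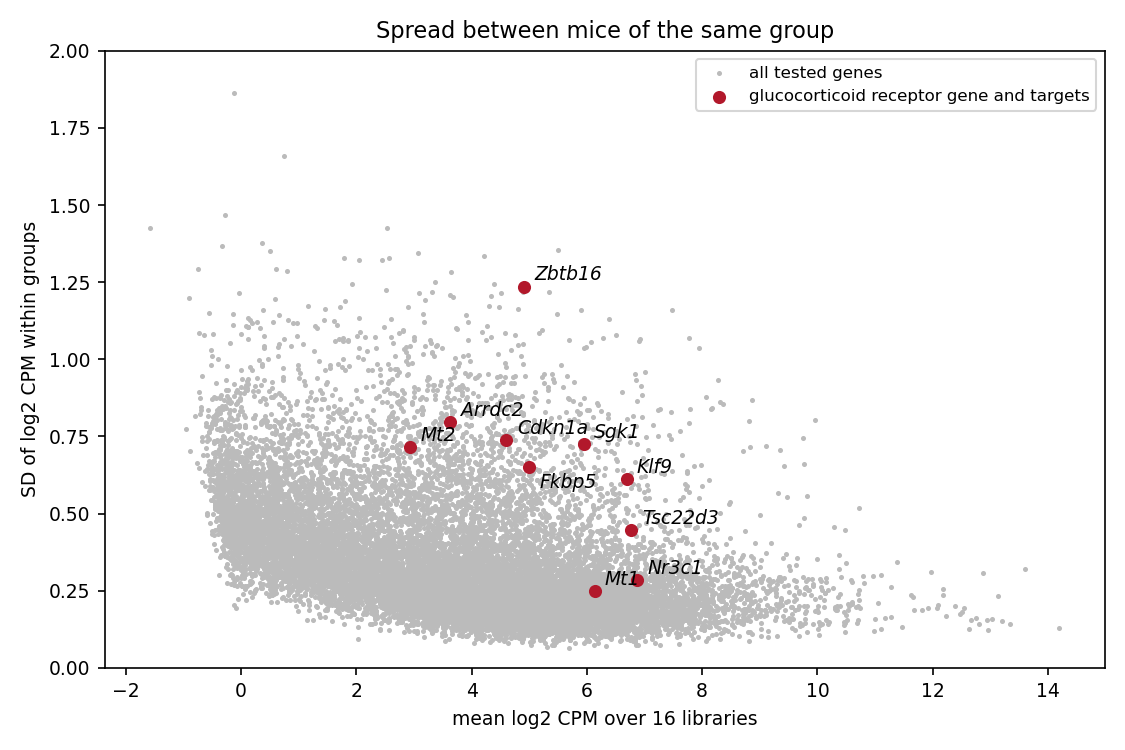
Spread between mice of one group (vertical axis, SD of log2 CPM about the group means) against mean level (horizontal axis, log2 CPM over 16 libraries) for 16400 tested genes in grey and the 10 genes in red; 1 gene lies above the axis. Zbtb16, at an SD of 1.24, lies near the upper edge for its level, and Nr3c1 (0.28) and Mt1 (0.25) lie nearer the middle for theirs.

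Mice of one group that were high for one target tended to be high for another. Of the 45 pairs of the 10 genes, 39 had a positive Pearson r of their deviations from the group mean over 16 mice (86.7%), with a median r of 0.42. Over every pair of tested genes 48.7% were positive and the median was -0.014. Male control mouse 3 was lowest for 7 of the 10 genes, and the pairs were not computed without that mouse alone. A single pair passed a permutation test adjusted over the 45 pairs: Zbtb16 and Klf9, with r = 0.841 (permutation p = 3e-05, adjusted p = 0.00135) and Spearman's rho = 0.879 (permutation p = 5e-05, adjusted p = 0.00225). Its r was 0.876 without the 2 mice farthest from the median of Zbtb16, 0.902 within the 10 libraries of title number 6 and 0.806 without male CKD mouse 4. Both are zinc finger factors, and neither passed the test for CKD.

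Other pairs were weaker. Mt2 and Cdkn1a had r = 0.642 (permutation p = 0.00313, adjusted p = 0.0704; rho = 0.679, permutation p = 0.0122, adjusted p = 0.139), and r = 0.576 without the 2 farthest mice. Tsc22d3 and Arrdc2 had r = 0.716 (permutation p = 0.0131, adjusted p = 0.185; rho = 0.774, permutation p = 0.00865, adjusted p = 0.139), and r = 0.515 without the 2 farthest mice. The sister genes Mt1 and Mt2 had r = 0.313. The receptor gene and Fkbp5 had r = 0.351 (permutation p = 0.240, adjusted p = 0.350; rho = 0.276, permutation p = 0.347, adjusted p = 0.557), and -0.02 without male control mouse 3 and male CKD mouse 4. Within the libraries of title number 6 fewer pairs were positive, 30 of 45, and the median r was 0.21. There 0 pairs passed the threshold, but groups that small allow too few permutations for any pair to pass on its own.

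**Figure D4:**
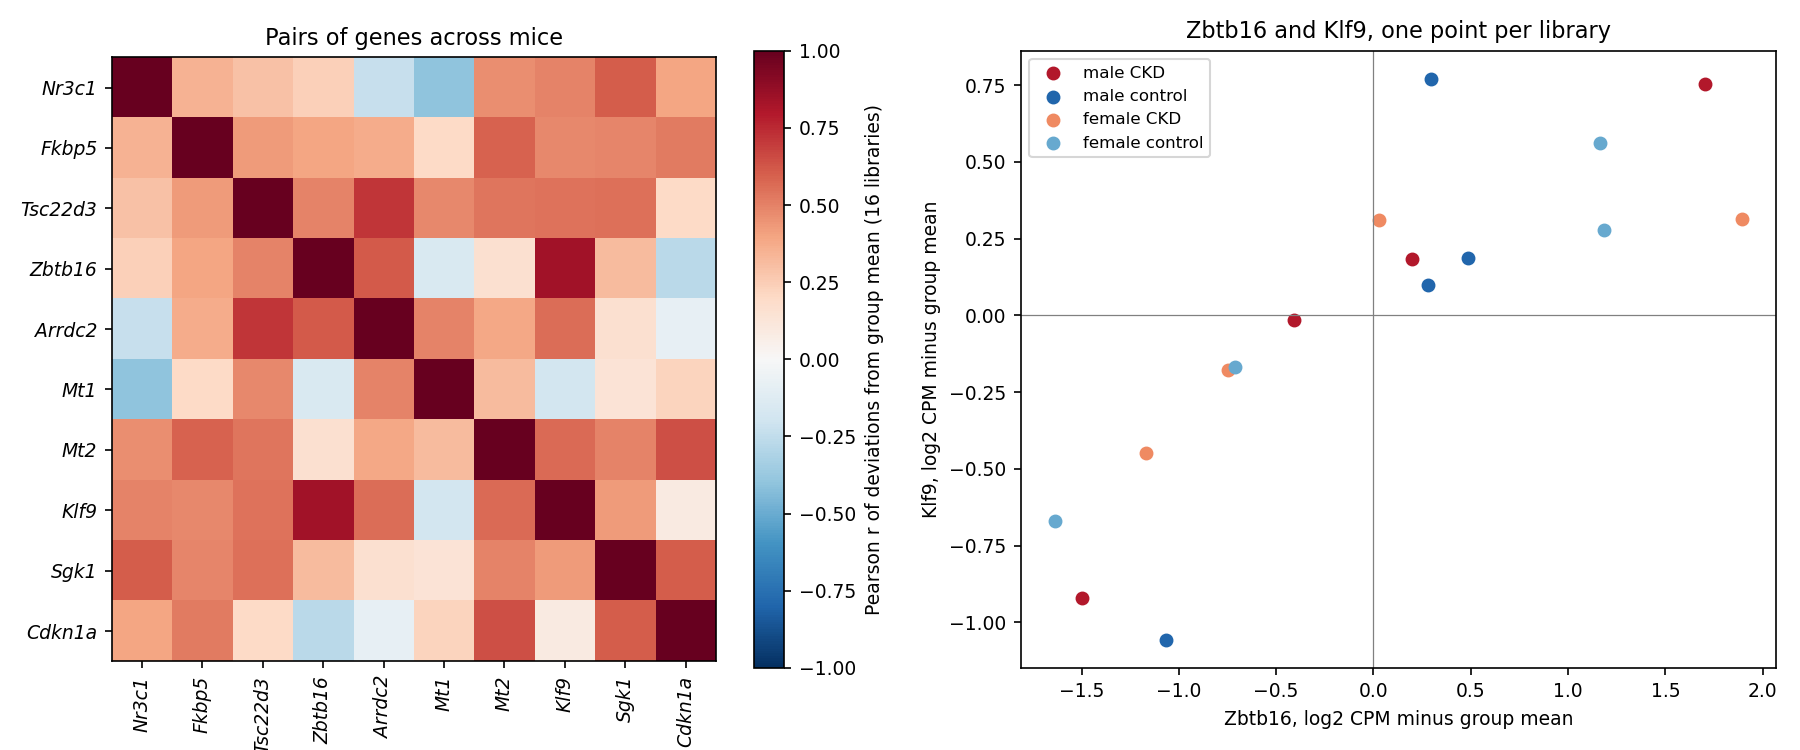
Left, Pearson r of deviations from the group mean of log2 CPM for each pair of genes over 16 mice (colour scale from -1 to 1). Right, the deviations of Zbtb16 (horizontal) and Klf9 (vertical) in log2 CPM, 1 point per mouse, where r is 0.841 and mice of all 4 groups lie along the trend.

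Genes whose level followed single targets most closely were looked up among 11374 tested genes, by the same r over 16 mice and as a description only. For Fkbp5 they were Fam107a (0.84), the kinase subunit Pik3r1 (0.83), Zrsr1 (0.82), Ccny (0.82) and Rraga (0.82). For Tsc22d3 they were Dhx40 (0.90), the phosphodiesterase Pde3b (0.84), Tmeff1 (0.82), the death receptor Fas (0.79) and Lancl3 (0.77). For Arrdc2 they were Ccdc149 (0.86), Proser2 (0.83), Lmo4 (0.83), Chac1 (0.83) and the kinase Pim3 (0.79). For Mt1 they were Tmem37 (0.82), Ptcd3 (0.81), Cep126 (0.79), Trit1 (0.78) and Copb2 (0.77). Among the 10 genes the one closest to Fkbp5 was Mt2, in rank 345 of 16399 other genes. That pair had r = 0.593 (permutation p = 0.150, adjusted p = 0.282), and r = 0.192 without male control mice 1 and 3.

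A second list of 34 known glucocorticoid targets, none of them among the 10, gave a wider view. All were tested: 25 had a positive (background 50.2%) and 9 a negative fold change, with a median of 0.27. With edgeR no gene of the list was called after adjustment. At an unadjusted p under 0.05 there were 7 positive and 2 negative changes, beside 8.12% of all tested genes with a positive change and 15.4% in either direction. DESeq2 called 4 of the 34 and limma-voom 1, beside 2.03% and 1.21% of all genes with an adjusted p in those tools. In males 26 of 34 were positive (median 0.37, background 51.4%) and in females 24 (median 0.16, background 49.3%). Over the other settings the median of the list ranged from 0.12 to 0.31. The list was drawn up with earlier results of these data known.

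Glul, the enzyme that makes glutamine, had 378 to 619 CPM in CKD mice (median 497) and 223 to 428 CPM in control mice (median 332). In 7 of 8 CKD mice it was above the highest control, and its log2 fold change was 0.56 ± 0.13 (edgeR adjusted p = 0.0946, DESeq2 adjusted p = 0.0146). Tat, the tyrosine aminotransferase used as a standard readout of the receptor in liver, was scarce here, with 0.284 to 2.52 CPM in CKD mice (median 1.32) and 0.188 to 0.985 CPM in control mice (median 0.502). Its log2 fold change was 1.3 ± 0.33 (edgeR adjusted p = 0.105, DESeq2 adjusted p = 0.0317). Hif3a, a hypoxia-inducible factor subunit, had 1.23 to 5.55 CPM in CKD mice (median 2.61) and 0.613 to 2.36 CPM in control mice (median 1.09). It gave 1.05 ± 0.28 (edgeR adjusted p = 0.108, DESeq2 adjusted p = 0.0250, limma-voom adjusted p = 0.0451).

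Further genes of this list are named after their values were seen. Nfkbia, the inhibitor of NF-kB, had 42.8 to 92.7 CPM in CKD mice and 29.6 to 62.7 CPM in control mice (log2 fold change 0.59 ± 0.17, edgeR adjusted p = 0.123, DESeq2 adjusted p = 0.0448). The 2 genes with an unadjusted p under 0.05 and a negative change were the repressor Bcl6 (-0.72 ± 0.28, edgeR adjusted p = 0.229) and Lpin1, a phosphatase of lipid synthesis (-0.28 ± 0.11, edgeR adjusted p = 0.238). Among genes linked to atrophy of skeletal muscle, the log2 fold change was -0.02 ± 0.11 for the ubiquitin ligase Fbxo32 (edgeR adjusted p = 0.942), 0.18 ± 0.10 for the ubiquitin ligase Trim63 (edgeR adjusted p = 0.366) and 0.67 ± 0.30 for myostatin, Mstn (edgeR adjusted p = 0.288). Mstn was scarce, with 0.447 to 1.29 CPM in CKD and 0.0831 to 0.784 CPM in control mice. Per1 and Klf15, rapid targets in many tissues, had 0.33 ± 0.42 (edgeR adjusted p = 0.723) and 0.14 ± 0.26 (edgeR adjusted p = 0.812).

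**Figure D5:**
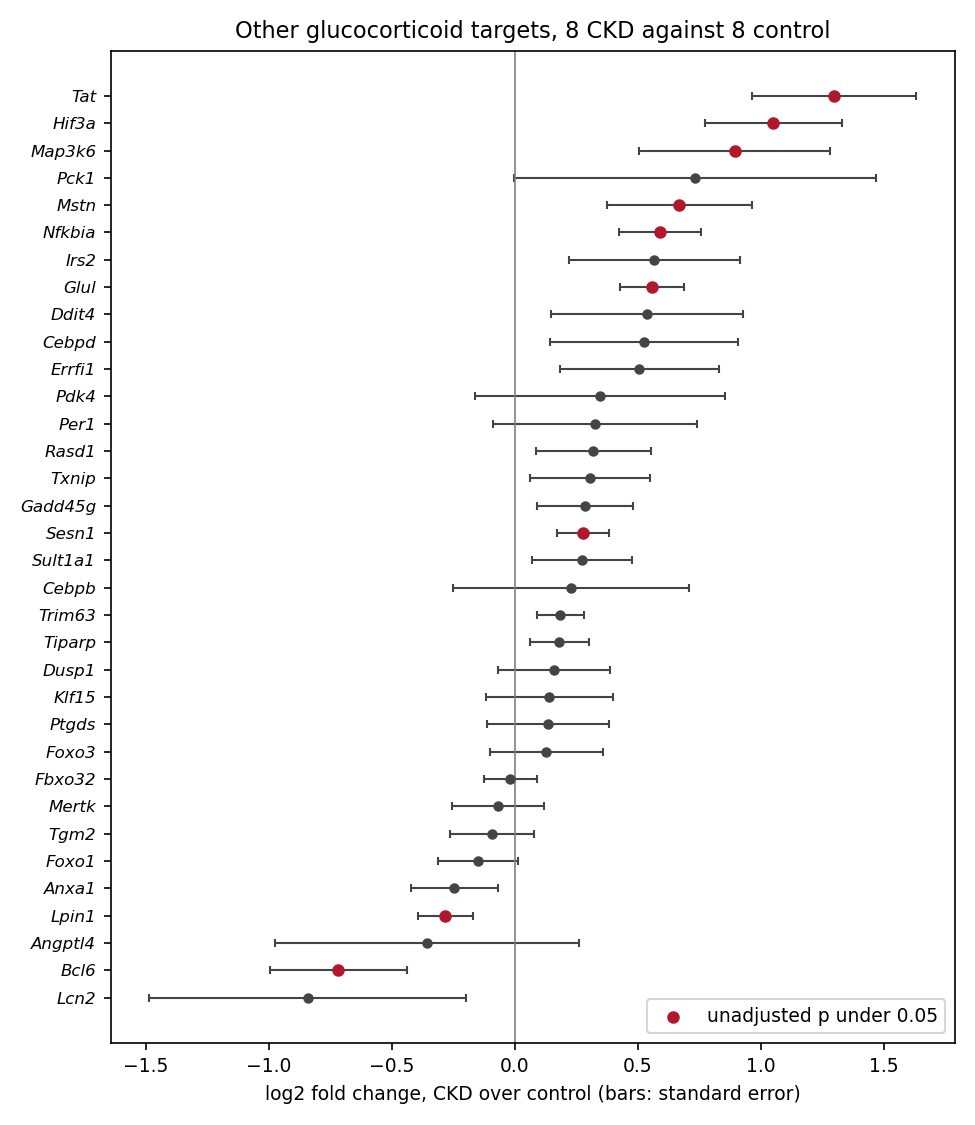
Log2 fold change of CKD over control (horizontal axis, 8 against 8 mice) with its standard error for 34 further known glucocorticoid targets, ordered by size; red points have an unadjusted edgeR p under 0.05, and none passes after adjustment. Of the 34 points 25 lie right of 0, from Tat at 1.3 downwards.

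Glucocorticoids rise and fall over the day, so clock genes were listed too. Of 18 clock genes 9 were positive and 9 negative, with a median of 0.06 and none past the threshold. Nr1d1, the repressor REV-ERB alpha, had 21.7 to 69.3 CPM in CKD mice (median 45.6) and 28.1 to 147 CPM in control mice (median 79.1), a log2 fold change of -0.89 ± 0.28 (edgeR adjusted p = 0.142). Bhlhe40 gave -0.37 ± 0.17 (edgeR adjusted p = 0.312). Of 12 tested immediate early genes 7 were positive and 5 negative (median 0.23), none past the threshold. Nr4a1 gave 1.53 ± 0.58 (edgeR adjusted p = 0.221), with its highest value, 156 CPM, in male CKD mouse 2. Egr2 gave -0.78 ± 0.40 (edgeR adjusted p = 0.358) and Ier3 0.30 ± 0.16 (edgeR adjusted p = 0.396).

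Marker genes of other cell types were read beside the targets. None of 7 fibroblast, 6 endothelial or 6 pericyte and smooth muscle markers had a positive fold change, and 6 of 8 ventricular cardiomyocyte markers did, none of them past the threshold in edgeR. DESeq2 called 2 endothelial markers, Kdr (log2 fold change -0.72 ± 0.18 in edgeR, DESeq2 adjusted p = 0.0166) and Cldn5 (-0.78 ± 0.20 in edgeR, DESeq2 adjusted p = 0.0202, limma-voom adjusted p = 0.0443), and the cardiomyocyte marker Tnnt2 (0.36 ± 0.10 in edgeR, DESeq2 adjusted p = 0.0380). The summed fibroblast level was 191 to 1157 CPM in CKD and 839 to 1152 CPM in control libraries, and the summed endothelial level 309 to 815 CPM in CKD and 640 to 868 CPM in control libraries. Of 6 macrophage markers 1 was positive (77.0 to 174 CPM in CKD, 128 to 186 CPM in control libraries), and of 4 tested lymphocyte markers none (6.73 to 19.8 CPM in CKD, 12.8 to 24.4 CPM in control libraries). Of 5 tested adipocyte markers 3 were positive (222 to 838 CPM in CKD, 166 to 587 CPM in control libraries), and of 5 atrial markers 2 (154 to 732 CPM in CKD, 198 to 866 CPM in control libraries). All 5 erythroid markers were negative over both sexes and in males and positive in females, none past the threshold. Their sum was 369.5 to 3856 CPM in CKD and 1171 to 3099 CPM in control libraries. It was lowest in male CKD mouse 1 and highest in female CKD mouse 4, the CKD mice with the most Zbtb16 of their sex. The part of these levels in the values of the 10 genes was not tested. Male CKD mouse 4 had the lowest fibroblast, endothelial, macrophage and lymphocyte sums. Without that mouse the log2 fold change was 0.85 for Fkbp5, 1.05 for Arrdc2 and 0.31 for Mt1.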

How the data were processed

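RNA from ventricles of 16 mice was sequenced as 50 bp paired-end reads, per the labels' protocols. The authors deposited 1 table of whole-number read counts per Ensembl gene, left unnormalized. The submitters' processing notes name STAR 2.6.1d, featureCounts, Subread 1.6.3, DESeq2 1.30.1, FastQC, MultiQC and the mm10 genome, but no multi-mapping or strand setting, and these could shift counts of overlapping genes. Of 33399 genes 33367 were matched to GENCODE M21 (GRCm38), which gave symbols, positions and exon lengths.

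Groups came from the titles. Counts were tested with edgeR 4.0.16 in R 4.3.3 (filterByExpr with a minimum count of 10 and total of 15, TMM, quasi-likelihood F test, two-sided), fitted on all 16400 kept genes over all 16 libraries. CKD was compared with control with sex as a covariate, and effects by sex, their interaction and sex differences came from a model of the 4 groups. Adjusted p-values are Benjamini-Hochberg values over all tested genes, with a threshold of 0.05. Values after ± are SD for levels and SE for log2 fold changes. Single genes of the lists were named by lowest p, up to 3 a list, and others are marked as chosen after their values were seen.

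Depth was 10203707 counts or more per library, and counts of the 10 genes were as low as 22 in a library (Mt2). The labels do not say whether mice shared a cage or preparation day. The edgeR p-values set group differences against the spread between these samples only. Pairs were tested by 100000 permutations within groups in scipy 1.17.1. The tests of CKD against control and of pairs were tried on simulated data, and the other steps were not. The genes and lists were chosen with earlier results of these data known. Alternatives were DESeq2 1.42.0, limma-voom (limma 3.58.1) with quality weights, other scalings and filters, the title number as a factor or restricted to 6, GC trend removal and each library left out. Leaving out male CKD mouse 4 and female control mouse 2 together was chosen after seeing the data.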

Additional observations from a re-analysis of the deposited data

Results flagged for a closer look

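In 2 of 40 sets of 4 mice (10 genes in 4 groups) 1 mouse lay far from the other three by Dixon's criterion, and chance alone flags about 1 in 20 such sets. Arrdc2 had 17.97 CPM in male control mouse 1, where the other male controls had 5.336 to 6.693 CPM. Without that mouse the male CKD log2 fold change of Arrdc2 was 1.93. Mt2 had 19.45 CPM in female CKD mouse 1, where the other female CKD mice had 8.177 to 10.01 CPM, all still above the female controls.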

How the results depend on the processing

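None of the 10 genes passed the adjusted threshold in CKD against control, in either sex or in the interaction under the 27 or 28 alternatives run for each (1110 tests, lowest adjusted p 0.0615). For the sex differences within an arm, the count of the 10 genes past the threshold was 0 in each of the 27 alternatives run. The background differed by setting. In CKD mice limma-voom called 389 genes higher and 1165 lower in females than in males, of 16400 tested, and edgeR 3 and 4. The count of gene pairs past the threshold was 1, and also 1 without male CKD mouse 4. Within the 10 libraries of title number 6 it was 0, but the small groups there allow too few permutations for a pair to pass on its own. That 0 therefore does not show a weaker pair, and Zbtb16 and Klf9 had r = 0.902 there, against 0.841 over 16 mice. Counts were lowest for Mt2, with as few as 22 in a library, and for Arrdc2, with as few as 47, so counting error bears on these most. The 95% intervals ran from 0.11 to 0.62 (Mt1, the narrowest) up to -0.23 to 2.11 (Zbtb16, the widest). No paired analysis was possible because the labels give no replicate numbers shared by the groups. In the comparison of CKD with control, Fkbp5, Tsc22d3, Zbtb16, Arrdc2, Mt1 and Mt2 kept a positive sign in every setting run. Where a sign turned, the log2 fold change or r is given here, and the cause was not tested.

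With limma-voom they were -0.0735 for Zbtb16 in females, and for the interaction -0.10 for Nr3c1 and 0.10 for Tsc22d3. With the title number as a factor they were -0.0704 for Sgk1 and -0.0353 for Cdkn1a over both sexes and -0.0584 for Zbtb16 in females. In the 10 libraries of title number 6 they were -0.47 for Sgk1 and -0.39 for Cdkn1a over both sexes, -0.15 for Mt1, -0.23 for Sgk1 and -0.41 for Cdkn1a in males, -0.51 for Zbtb16 in females, and 0.42 for Tsc22d3 and 0.0289 for Cdkn1a in the interaction. Without male CKD mouse 4 and female control mouse 2 they were 0.0054 for Nr3c1 over both sexes, 0.0551 for Nr3c1 in males, -0.14 for Zbtb16 and 0.11 for Cdkn1a in females, and -0.10 for Nr3c1 in the interaction. Without male CKD mouse 4, r was 0.11 for Mt1 and Klf9, -0.13 for Nr3c1 and Zbtb16 and 0.0698 for Zbtb16 and Mt1. Male CKD mouse 2 is the only library of title number 5. The fit with that factor gives it a term of its own, and the 10 libraries of number 6 leave it out.

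Leaving out 1 mouse at a time turned some signs. Over both sexes the ranges were -0.0746 to 0.17 for Klf9, -0.13 to 0.34 for Sgk1 and -0.0823 to 0.41 for Cdkn1a. In males they were -0.23 to 0.0693 for Nr3c1, -0.62 to 0.30 for Mt2, -0.16 to 0.41 for Klf9 and -0.0867 to 0.79 for Sgk1. In females they were -0.85 to 0.54 for Zbtb16, -0.18 to 0.18 for Klf9, -0.50 to 0.11 for Sgk1 and -0.51 to 0.13 for Cdkn1a. In the interaction they were -0.18 to 0.14 for Nr3c1, -0.0484 to 0.63 for Fkbp5, -0.34 to 0.19 for Tsc22d3 and -0.45 to 0.16 for Klf9.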
